A study of Mus musculus with 87 samples.

Results

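The genes described here are 9 interferon effectors usually read as markers of a type I interferon response, *Ifit1*, *Ifit2*, *Ifit3*, *Ifi44*, *Rsad2*, *Isg15*, *Bst2*, *Ifitm3* and *Ifi27l2a*, followed in mouse ventral midbrain after an injection of IFN-γ, a type II interferon. They were chosen by name, and 9 of 9 were found among the 48526 genes of the plate table and in the single-nucleus tables. Wildtype C57BL/6J adult mice, male and female, received 40 ng IFN-γ in 400 nL, or saline, by stereotactic injection on both sides of the ventral midbrain, so the saline groups carried the same surgery and no group was left uninjected. Nuclei were sorted by the neuronal nuclear antigen NeuN into NeuN− (mostly glial) and NeuN+ (neuronal) pools and sequenced in wells of a plate, with 6 wells per IFN-γ group and 4 saline wells, or 6 at 24 h, in each fraction at 6, 24, 48 and 72 h. At 48 h, single nuclei of 1 saline mouse and 2 IFN-γ mice were also sequenced.

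IFN-γ binds the IFNGR receptor, whose JAK kinases start a signal that reaches gamma-activated sites (GAS) in the genome. Type I interferons act through another receptor, IFNAR, and a complex with STAT2 and IRF9 that binds interferon-stimulated response elements (ISRE). IRF1, itself an IFN-γ target, also binds ISRE-like sequence, and genes with an ISRE can answer both types of interferon. The members fall into classes by role. *Ifit1*, *Ifit2* and *Ifit3* encode tetratricopeptide-repeat proteins that bind viral RNA or each other, *Rsad2* encodes viperin, a radical SAM enzyme, and *Isg15* a ubiquitin-like modifier conjugated to other proteins. *Bst2* encodes tetherin, which holds budding virions at the cell surface, and *Ifitm3* a membrane protein that blocks virus entry at endosomes. *Ifi44* and *Ifi27l2a* encode interferon-induced proteins of less settled function.

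The promoter sequences are shown first because the motifs separate the members: 6 stretches of 100 bases that hold the matches upstream of the start, from RefSeq (GRCm38.p6), 5′ to 3′ on the strand of the gene, with ISRE and GAS matches in capitals. The ISRE was searched as GAAA, any 2 bases and GAAA again, which reads TTTC, 2 bases and TTTC on the other strand, and the GAS as TTCNNNGAA, its own reverse complement. *Ifit1* and *Ifit3* each held 2 separate ISRE matches, *Rsad2* held 1, *Isg15* held 3 that overlapped each other, and *Bst2* held 2 overlapping ones whose first also overlapped a GAS match.
Ifit1, chr19:34640739-34640838, plus strand: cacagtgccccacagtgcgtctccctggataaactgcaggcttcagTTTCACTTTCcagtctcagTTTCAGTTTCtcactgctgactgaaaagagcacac
Ifit3, chr19:34583349-34583448, plus strand: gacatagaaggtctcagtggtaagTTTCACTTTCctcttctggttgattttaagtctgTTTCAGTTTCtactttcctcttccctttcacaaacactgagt
Rsad2, chr12:26456503-26456602, minus strand: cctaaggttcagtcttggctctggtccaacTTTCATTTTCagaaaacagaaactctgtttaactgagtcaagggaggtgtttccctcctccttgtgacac
Isg15, chr4:156200829-156200928, minus strand: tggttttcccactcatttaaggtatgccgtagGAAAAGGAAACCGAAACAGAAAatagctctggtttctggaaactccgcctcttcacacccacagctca
Bst2, chr8:71537553-71537652, minus strand: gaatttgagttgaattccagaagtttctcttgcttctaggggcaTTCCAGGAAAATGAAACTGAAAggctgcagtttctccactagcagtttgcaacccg
Ifit2, chr19:34550444-34550543, plus strand: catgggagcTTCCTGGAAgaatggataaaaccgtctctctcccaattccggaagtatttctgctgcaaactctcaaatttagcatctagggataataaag

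Measured from the annotated start, the ISRE matches upstream began at −104 and −85 in *Ifit1*, −156 and −122 in *Ifit3*, −120 in *Rsad2*, −78 in *Isg15* and −130 in *Bst2*. *Ifit2* differed from the other *Ifit* genes in this window: it held a GAS match at −241 and no match to the ISRE letters in either of its 2 annotated windows. The matches of *Ifitm3*, 2 ISRE and 1 GAS, all lay after the start, and the window of *Ifi44* held neither motif. Windows were found for 8 of the 9 members, all but *Ifi27l2a*. Of 32851 windows of 300 bases (250 before and 50 after each start) in the same RefSeq table, 3.44% held an ISRE match and 8.3% a GAS match on either strand. A match describes these letters and is no evidence of binding.

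**Figure D1:**
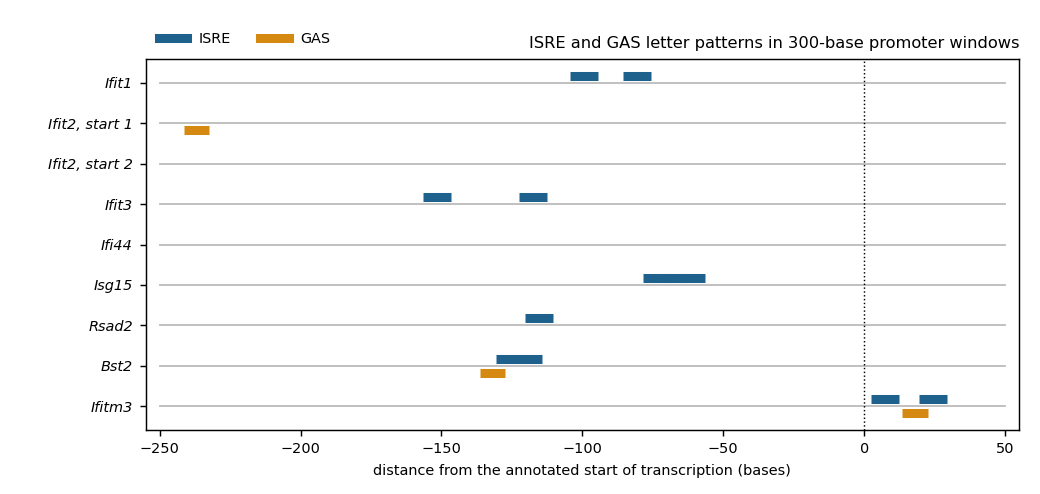
Positions of ISRE (blue) and GAS (orange) matches in the 300-base promoter window of 8 members, with distance from the annotated start in bases on the horizontal axis and 1 line per window. Overlapping ISRE matches merge into 1 bar, as in *Isg15*, whose 3 matches span −78 to −57; *Ifi44* and the second window of *Ifit2* hold none.

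The wells held 20962 to 301445 counts of unique transcripts in NeuN− nuclei and 277113 to 1684374 in NeuN+ nuclei, so a single count weighed more in NeuN− wells. The labels call every well NeuN+, and the fraction was taken from the study's own sheet of well barcodes. *Rbfox3*, which encodes NeuN, had group medians of 0 to 9.77 CPM (counts scaled to a well total of 1000000) in NeuN− and of 108 to 145 in NeuN+ nuclei, and the highest NeuN− well, a saline well at 24 h, held 129.9. The study reports fewer mice than wells in each group. Several wells came from each mouse and the sources used here do not say which, so p-values measure the spread between wells and not between mice. The number of wells in a group is therefore not a number of animals. Time points differed in their mice: the female-specific transcript *Xist* was high in all wells at 6 and 48 h of both treatments, while at 24 h it was low in all IFN-γ wells and above 500 CPM in 4 of the 6 saline wells of each fraction. In these pools, a change in the share of a cell type and a change in RNA per nucleus cannot be told apart.

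*Ifit1*, *Ifit2*, *Ifit3*, *Ifi44* and *Rsad2* were higher in IFN-γ wells at 6 and 24 h in both fractions, and by 72 h no member separated the treatments in every well. A gene counted as called where its log2 fold change passed 1 with an adjusted p below 0.01 by edgeR's quasi-likelihood test. The SE printed with an edgeR value is its absolute log2 fold change divided by the square root of the test's F value. It is an approximation, rough where saline counts are few, and SEs of separate contrasts do not combine. The filter on low counts kept few of the 9 members: 2, 1, 0 and 0 of them at 6, 24, 48 and 72 h in NeuN− nuclei and 4, 4, 0 and 0 in the NeuN+ fraction. All those kept were called higher, but a gene at 0 in saline wells passes this filter only through its IFN-γ wells, so these counts do not describe the 9. Of all genes tested after the filter, 7.86% and 7.22% were called higher in the NeuN− fraction at 6 and 24 h, and 1.08% and 1.47% in the NeuN+ fraction.

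Without that filter all 9 could be tested. At 6 h 5 of the 9 were called higher in NeuN− nuclei, against 1.7% of all genes, and 5 in NeuN+ nuclei, against 0.571%; they were *Ifit1*, *Ifit2*, *Ifit3*, *Ifi44* and *Rsad2* in both fractions. The same 5 were called at 24 h in NeuN− nuclei (background 2.24%), and in NeuN+ nuclei *Isg15* and *Bst2* joined them, for 7 of 9 (background 0.95%). *Ifit1* was the single member called at 48 h, in NeuN− nuclei against a background of 0.244% and in NeuN+ nuclei against 0.142%, and none was called at 72 h, where 0.203% and 0.182% of genes were. At 72 h 1 member in each fraction had an unadjusted p below 0.05 by edgeR and by DESeq2, and DESeq2 called 0. *Ifit1* at 48 h was not called by DESeq2. At the early times DESeq2 called the same 5 genes, against backgrounds of 1.26% and 1.43% in NeuN− nuclei at 6 and 24 h and 0.435% and 0.769% in the NeuN+ wells. With only the 2 saline wells of each fraction that were low in *Xist* at 24 h, an alternative added after the data were seen, these 5 were called in both fractions. The backgrounds were then 5.22% in NeuN− and 1.55% in NeuN+ nuclei with the filter, and 1.02% and 0.809% without it.

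Over the 9 members, the median log2 ratio of summed CPM, IFN-γ over saline, was 2.04 at 6 h and 3.34 at 24 h in the NeuN− fraction and 2.49 and 2.73 in the NeuN+ fraction. In this median, members with 0 saline counts (5, 1, 2 and 2 of them) stood at a lower bound, computed against 3 counts over the saline group, which is what a count of 0 allows. The fitted log2 fold changes had medians of 3.51, 3.15, 3.7 and 4.24, against −0.018, 0.17, 0.046 and −0.031 over all genes tested without the filter. Fitted values of genes with no saline counts depend on the prior count and are no bounds. Counted by wells, every IFN-γ well lay above every saline well for 4, 5, 3 and 0 members at 6, 24, 48 and 72 h in NeuN− nuclei, where 2.19%, 2.19%, 1.04% and 0.851% of genes did so. In NeuN+ nuclei the numbers were 6, 5, 1 and 0, against 2.81%, 1.47%, 0.578% and 2.11% of genes.

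The *Ifit* genes lie side by side on chromosome 19 (GRCm38), *Ifit2* at 34550694 to 34576419, *Ifit3* at 34583531 to 34588731 and *Ifit1* at 34640871 to 34650009, all on the plus strand. *Ifit1* held the most counts of the 9, 1369 in the 48 IFN-γ wells and 57 in the 36 saline wells. At 6 h the NeuN− IFN-γ wells held a lowest, median and highest value of 106, 133 and 286 CPM, against 0, 0, 1 and 1 count in the 4 saline wells. In NeuN+ nuclei the IFN-γ wells held 34.6, 46.9 and 59.3 CPM and the saline wells 0, 1, 3 and 6 counts, at most 7.03 CPM. No IFN-γ well reached down to a saline well in either fraction. The log2 fold change was 4.61 (SE 0.55, adjusted p = 2.20e-08) in NeuN− and 3.67 (SE 0.35, adjusted p = 2.92e-09) in NeuN+ nuclei by edgeR's quasi-likelihood test.

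*Ifit1* at 24 h stood at 80.4, 109.7 and 141 CPM (lowest, median, highest) in NeuN− IFN-γ wells, where 2 counts in 1 of 6 saline wells were the whole background. NeuN+ IFN-γ wells held 79.3, 122 and 136 CPM against 0, 3.51 and 7.72 in saline wells. Both fractions again showed no overlap. The log2 fold change in NeuN+ nuclei was 4.9 (SE 0.24, edgeR adjusted p = 2.86e-14), and the ratios of summed CPM were 30.3 (95% counting interval 8.19 to 253) in NeuN− and 30.2 (20.8 to 45.4) in NeuN+ nuclei. Counting intervals here cover counting error only, not the spread between mice.

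At 48 h *Ifit1* had come down to 22.8, 35.2 and 56.3 CPM in NeuN− IFN-γ wells, still above the single count (12.5 CPM) in the 4 saline wells, and to 2.91, 7.12 and 15.5 CPM in NeuN+ IFN-γ wells, which overlapped the saline wells at 0, 1.57 and 4.62 CPM. Tested without the filter, the log2 fold change was 3.65 (SE 0.89, edgeR adjusted p = 0.00743) in NeuN− and 2.31 (SE 0.53, adjusted p = 0.00386) in NeuN+ nuclei. The 72 h wells overlapped in both fractions, at 0, 9.13 and 19.1 CPM in NeuN− and 0.999, 3.81 and 10.5 CPM in NeuN+ IFN-γ wells. The ratio of summed CPM in NeuN+ nuclei was still 4.2 (1.48 to 16.4) at 72 h, on 31 counts against 4.

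*Ifit2* was the member with the clearest baseline, 102 counts in the saline wells. NeuN− saline wells at 6 h held 9.55, 18.6 and 29 CPM (lowest, median, highest of 4) and IFN-γ wells 19.3, 88.8 and 239, so the lowest IFN-γ well fell within the saline range. At 24 h the NeuN− groups were apart, with 123, 148 and 186 CPM in IFN-γ wells against 0, 21.3 and 44.5 in saline wells. This was the only member that passed the filter there, and it rose with a log2 fold change of 3.0 (SE 0.38, edgeR adjusted p = 1.59e-07).

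NeuN+ nuclei held *Ifit2* at 16, 20.7 and 26.8 CPM in IFN-γ wells at 6 h and at 1.07, 4.33 and 5.86 in saline wells. By 24 h the values were 22.3, 29.3 and 33.1 against 1.6, 3.83 and 6. The groups did not overlap at either time, and the log2 fold changes were 2.4 (SE 0.37, adjusted p = 2.14e-05) and 2.76 (SE 0.24, adjusted p = 3.94e-09) by edgeR. At 48 h, and again at 72 h, the groups overlapped in both fractions, with ratios of summed CPM between 1.17 and 1.47 and intervals that included 1.

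*Ifit3* was nearly absent from saline wells, with 21 counts in all of them against 482 in the IFN-γ wells. NeuN− IFN-γ wells held 82.5, 85.9 and 145 CPM at 6 h, on 68 counts against 0, 1, 1 and 2 in the saline wells, and 58.9, 98.1 and 181 CPM at 24 h, on 91 counts against 3. NeuN+ IFN-γ wells held 10.8, 16.9 and 21.3 CPM at 6 h, where the 4 saline wells shared 1 count, and 25.2, 28.6 and 32.8 CPM at 24 h, where saline wells held 0.802, 1.11 and 2.51. All 4 comparisons were free of overlap.

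In NeuN+ nuclei *Ifit3* rose by a log2 fold change of 5.1 (SE 0.64, adjusted p = 7.59e-07) at 6 h and 4.46 (SE 0.28, adjusted p = 4.89e-12) at 24 h by edgeR. Without the filter the NeuN− values were 3.31 (SE 0.54, edgeR adjusted p = 1.01e-07) and 3.94 (SE 0.54, adjusted p = 5.63e-11). At 48 h 15 counts in the NeuN+ IFN-γ wells, 1.48 to 3.22 CPM, still lay above the 1 count in saline wells. *Ifit3* has a near-identical neighbour, *Ifit3b* at 34607970 to 34613401 of the same chromosome, and reads of the 3′ end could have been split between them. *Ifit3b* held 27 counts against 0 at 6 h and 23 against 0 at 24 h in NeuN− nuclei, and was called there without the filter (edgeR adjusted p = 1.29e-04 and 0.00153).

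*Ifi44* was close to silent in saline wells, with 4 counts over 36 wells against 453 in the IFN-γ wells. At 6 h the NeuN− IFN-γ wells held 47.7, 66.4 and 113 CPM and the 4 saline wells 0, 0, 0 and 0 counts, a level at least 12.4-fold higher. At 24 h they held 44.2, 79.99 and 113 CPM against 1 count in 6 saline wells. NeuN+ IFN-γ wells held 13, 16.1 and 22.6 CPM at 6 h and 24.5, 28.4 and 30.8 at 24 h, against 1 and 2 counts over the saline wells. The treatments did not overlap in these 4 comparisons.

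The edgeR log2 fold changes of *Ifi44* in NeuN+ nuclei were 5.16 (SE 0.61, adjusted p = 2.72e-07) at 6 h and 6.23 (SE 0.38, adjusted p = 2.62e-12) at 24 h, and the ratio of summed CPM at 24 h was 103 with an interval of 28 to 856. At 48 h 9 counts remained in NeuN− IFN-γ wells, all 6 of which held at least 1, against 0 in saline wells, at least 2.2-fold higher. At 72 h 3 counts in each fraction stood against 0.

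*Rsad2*, on chromosome 12 at 26442746 to 26456452 on the minus strand, reached 83.5, 94 and 143 CPM in NeuN− IFN-γ wells at 6 h, on 69 counts against 0 in each of the 4 saline wells. That was at least 14.5-fold higher (edgeR adjusted p = 5.94e-08). At 24 h the same fraction held 29.9, 53.4 and 100.45 CPM against 2 counts in 6 saline wells, a ratio of summed CPM of 14.6 (3.84 to 124). Every IFN-γ well was above every saline well at both times.

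NeuN+ nuclei held 4.74, 10.7 and 14 CPM of *Rsad2* at 6 h and 1.84, 8.23 and 15 CPM at 24 h in IFN-γ wells, on 73 and 57 counts, against 1 and 3 counts over the saline wells. The filter left *Rsad2* out of both NeuN+ tests, and without it the log2 fold changes were 4.44 (SE 0.76, edgeR adjusted p = 7.90e-07) and 4.24 (SE 0.58, adjusted p = 4.80e-11). At 48 and 72 h no group held more than 5 counts of this gene.

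**Figure D2:**
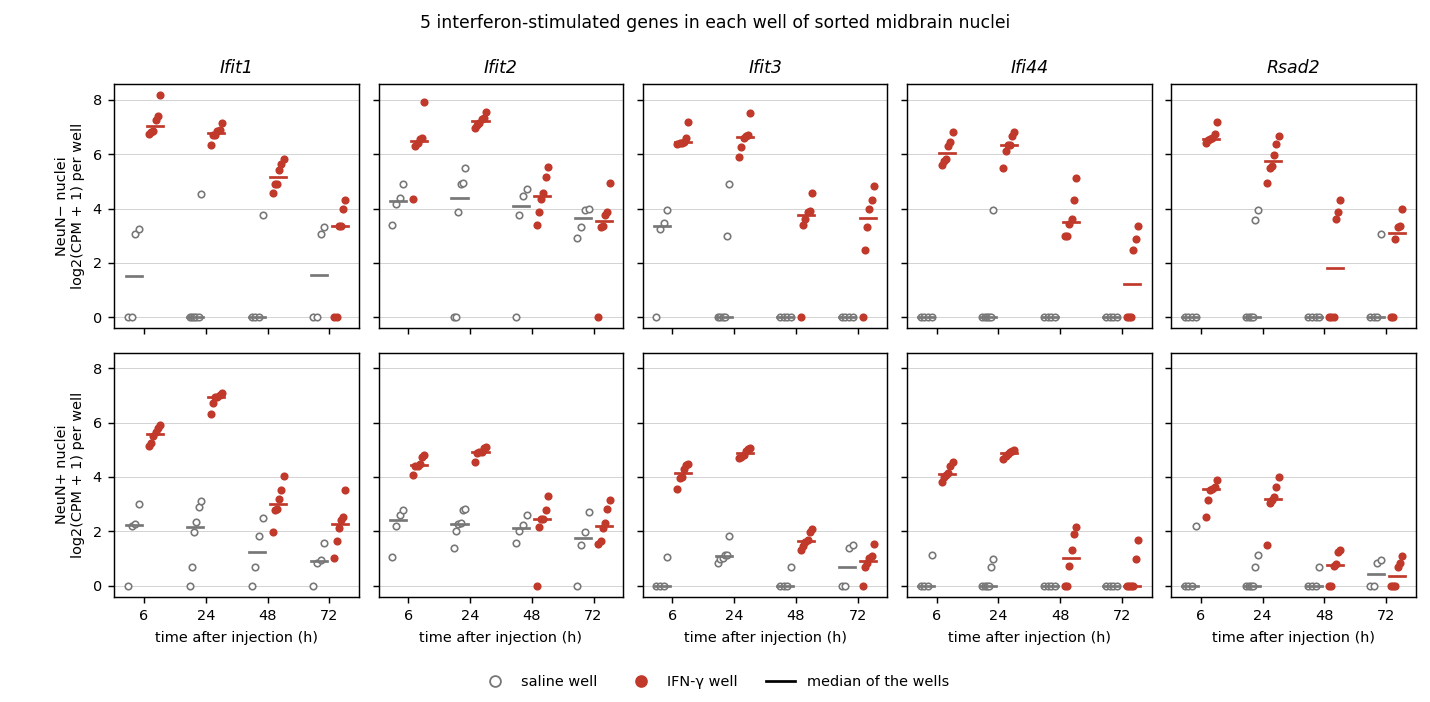
log2(CPM + 1) of *Ifit1*, *Ifit2*, *Ifit3*, *Ifi44* and *Rsad2* in each well (open grey, saline; red, IFN-γ; lines, group medians) at 6, 24, 48 and 72 h, NeuN− above and NeuN+ below, with points set side by side in order of value. IFN-γ wells lie above all saline wells at 6 and 24 h, except for *Ifit2* in NeuN− nuclei at 6 h, and mix with them at 72 h.

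The other 4 members were too thinly counted for a level per well, and their counts were summed over the wells of a group. *Isg15* had 30 counts in all IFN-γ wells and 2 in all saline wells, at 0 to 3 counts per well. In NeuN+ nuclei it had 7 counts against 0 at 6 h and 9 against 0 at 24 h, the latter at least 3.74-fold higher and called without the filter (edgeR adjusted p = 0.0070). NeuN− nuclei held 5 and 4 counts against 0 at these times, and each group at 48 and 72 h held 0 to 2 counts in both fractions.

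*Bst2* followed the same times, with 63 counts in IFN-γ wells and 1 in saline wells. NeuN+ IFN-γ wells shared 18 counts at 6 h, 2 to 5 in each, against 0, and 15 against 0 at 24 h, at least 2.45-fold and 6.23-fold higher. Without the filter edgeR called the 24 h difference (adjusted p = 2.65e-04) and not the 6 h one (adjusted p = 0.0433). In NeuN− nuclei 8 counts against 0 at 6 h and 18 against 1 at 24 h were not called, and 3 of the 6 IFN-γ wells at 24 h held none. At 48 and 72 h each IFN-γ group held 1 count.

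*Ifitm3* had 12 counts against 0 in NeuN− nuclei at 6 h, at least 2.52-fold higher, 14 against 2 at 24 h and 9 against 0 at 48 h. NeuN+ nuclei had 24 against 2 at 6 h, a ratio of 4.89 (1.21 to 42.7), and 20 against 5 at 24 h, a ratio of 4.99 (1.82 to 17). None of these was called, and the smallest edgeR adjusted p was 0.0284, at 24 h in NeuN+ nuclei.

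*Ifi27l2a* had its larger sums at 24 and 48 h. At 6 h the sums were small in both treatments, with 2 counts against 6 in NeuN− and 4 against 2 in NeuN+ nuclei. At 24 h the sums were 26 against 2 in NeuN− nuclei, a ratio of 7.3 (1.83 to 63.4), and 19 against 4 in NeuN+ nuclei, 5.92 (1.97 to 23.9). At 48 h they were 10 against 1, a ratio of 7.34 (1.04 to 318), and 20 against 1, a ratio of 12.1 (1.94 to 503). All 6 NeuN− IFN-γ wells lay above the saline wells at 48 h, but no difference passed the test (edgeR adjusted p = 0.0160 and 0.0192 at 24 h, NeuN− and NeuN+). The rise of its effect from 6 to 24 h in NeuN− nuclei, a log2 value of 4.63 (SE 1.32) without the filter, missed the limit too (edgeR adjusted p = 0.0350). *Ifi27l2a*, on chromosome 12 at 103442167 to 103443680, lies next to its relative *Ifi27* (103434211 to 103440239) on the opposite strand.

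**Figure D3:**
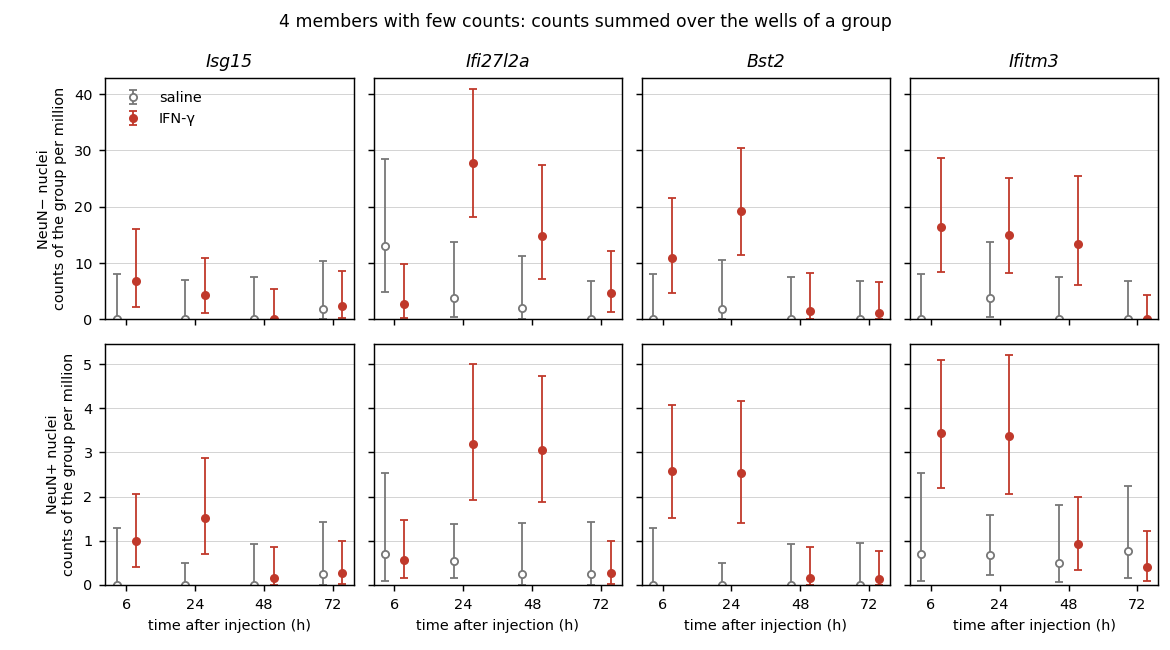
Level in CPM, from the counts summed over the wells of a group, for *Isg15*, *Ifi27l2a*, *Bst2* and *Ifitm3* (open grey, saline; red, IFN-γ) at 6, 24, 48 and 72 h, with 95% Poisson intervals, NeuN− above and NeuN+ below on separate scales. In these wells *Isg15* and *Bst2* are at 0 to 2 counts per group by 48 h, while *Ifi27l2a* holds 20 counts against 1 in NeuN+ nuclei at 48 h.

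How the effect changed between times was tested in 1 fit of the wells of a fraction. Set against the saline wells of its own time, *Ifit2*, the member with the most saline counts, had a log2 fold change lower by 2.26 at 48 h (SE 0.57, edgeR adjusted p = 0.0159) and lower by 2.32 at 72 h (SE 0.62, adjusted p = 0.0159) than at 24 h in NeuN+ nuclei. In NeuN− nuclei the differences were −2.46 (SE 0.85, adjusted p = 0.0447) and −2.84 (SE 0.96, adjusted p = 0.0270). These missed the limit of 0.01. *Ifit1* had differences of −2.57 (SE 0.97, edgeR adjusted p = 0.159) at 48 h and −2.99 (SE 1.31, adjusted p = 0.198) at 72 h in NeuN+ nuclei, and of −0.79 (SE 2.57) and −3.57 (SE 1.6) in the NeuN− fraction. *Ifit3* in NeuN+ nuclei at 72 h had −4.39 (SE 1.15, edgeR adjusted p = 0.0243). No member was called in these contrasts, while 2 and 4 of the 5 tested in NeuN+ and 1 and 2 of the 4 tested in NeuN− nuclei, at 48 and 72 h, had an unadjusted p below 0.05. For *Ifit2* the 24 h effect did not differ from the 6 h effect at this precision in NeuN− (1.03, SE 0.76) or NeuN+ nuclei (0.35, SE 0.56).

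The IFN-γ wells could also be compared among themselves, without the sparse saline counts. Between 24 and 48 h, 4 members were called lower in NeuN− nuclei (background 5.54%), with *Ifit1* down by a log2 value of −1.48 (SE 0.32), *Ifit2* by −2.58, *Ifit3* by −2.88 and *Rsad2* by −2.7. The NeuN+ wells showed 5 members lower (background 1.37%), in log2 changes from −2.44 for *Ifit2* to −3.99 for *Ifi44*. From 24 to 72 h 4 and 5 members were lower (backgrounds 6.52% and 1.44%), down to −5.73 for *Ifi44* in NeuN+ nuclei. Between 6 and 24 h 1 member was higher in NeuN+ nuclei (background 1.24%), *Ifit1*, by a log2 value of 1.32 (SE 0.17). The times were different mice, and the IFN-γ wells at 24 h were low in *Xist* while those at 6 and 48 h were high, so time and these mice cannot be told apart. The 72 h IFN-γ wells were low in *Xist* as at 24 h, but they too came from other mice than the 24 h wells.

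Whether the fractions differed in their response was tested by the interaction of NeuN and treatment. For *Ifit2* the NeuN+ log2 fold change exceeded the NeuN− one by 0.34 (SE 0.64) at 6 h and was lower by 0.42 (SE 0.64) at 24 h, with edgeR adjusted p of 0.829 and 0.776, so a difference between fractions of the size of these errors was not detectable. No other member was called either: of 5 members tested by edgeR at each of these times, and 9 by DESeq2, 0 had an unadjusted p below 0.05. Among saline wells alone no member passed the filter. Without it 2 were called higher in NeuN− than NeuN+ nuclei, *Ifit2* and *Ifi27l2a* (background 6.96%), and DESeq2 added *Ifit3*.

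The summed levels of cell type markers also differed between treatments, which can reflect the share of a cell type or its RNA per nucleus. In NeuN− nuclei the summed level of 5 oligodendrocyte markers ran from 5708 to 6710 CPM in saline wells and from 3435 to 4213 in IFN-γ wells at 6 h, and from 5605 to 6891 against 1848 to 2402 at 24 h. The 5 astrocyte markers summed to 315 to 905 CPM in saline wells and 1183 to 1811 in IFN-γ wells at 24 h, and the 6 microglial markers to 420.02 to 539.5 against 47.7 to 164 at 6 h. NeuN+ pools held little of the oligodendrocyte list, 225 to 312 CPM against 122 to 164 at 6 h. At 24 h their astrocyte markers summed to 83.9 to 188 CPM in saline and 229.8 to 258 in IFN-γ wells, and 3 markers of GABA neurons to 206 to 323 against 107 to 161. The part of these shifts in the results of either fraction was not tested. T cell markers were at or near 0, with at most 1 count in any group of either fraction at these times.

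Among the relatives of the members, a list of 11 genes, *Ifi27* was the only one called after the filter, at 6 h in NeuN+ nuclei (79 counts against 6, log2 fold change 2.31, SE 0.46, edgeR adjusted p = 0.00100). *Ifi27*, a mitochondrial interferon-inducible protein gene, was also called without the filter at 24 h in both fractions and at 48 h in NeuN− nuclei, where it held 50 counts against 7. *Ifit1bl1* and *Ifit1bl2*, copies of *Ifit1* in the same cluster, did not follow it: in NeuN+ nuclei at 24 h they held 7 against 27 and 11 against 48 counts, and the log2 fold change of −1.72 (SE 0.49) for *Ifit1bl2* missed the limit (edgeR adjusted p = 0.0129). *Ifitm7* held 32 against 21 and 27 against 47 counts in NeuN+ nuclei at 6 and 24 h, with adjusted p of 0.559 and 0.572 by edgeR. *Ifitm10* fell in NeuN− nuclei at 24 h without the filter, from 8 counts to 0 (edgeR adjusted p = 0.00552).

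The enzymes that attach ISG15 to proteins and remove it were followed as a list of 5 genes. *Herc6*, the mouse ISG15 ligase, was called higher at 6 and 24 h in both fractions, with log2 fold changes of 4.47 and 4.77 in NeuN− nuclei, and of 4.17 and 4.15 among NeuN+ wells. *Usp18*, which removes ISG15 and restrains type I receptor signalling, rose by 5.3 and 5.9 in NeuN+ nuclei (SE 0.49 and 0.38). Of the activating enzyme *Uba7* NeuN+ nuclei held 54 counts against 1 and 64 against 2, and of the conjugating enzyme *Ube2l6* 29 against 3 at 24 h. Without the filter 3 of 5 were called in NeuN− and 3 of 5 in NeuN+ nuclei at 6 h, and 2 and 4 of 5 at 24 h. The list's median log2 fold changes in those tests were 2.22 and 4.03 at 6 h and 2.34 and 4.14 at 24 h. *Trim25*, another ISG15 ligase, was called in NeuN− nuclei at 6 h alone (2.22, SE 0.51), and in NeuN+ nuclei at 24 h its log2 fold change was 0.04 (SE 0.23).

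Of 25 other antiviral genes usually read with the members, 16 were called higher in NeuN− and 14 in NeuN+ nuclei at 6 h without the filter, and 18 and 20 at 24 h; none was called lower. Their median log2 fold changes were 2.91 and 2.53 at 6 h and 3.61 and 2.88 at 24 h, beside the medians of all genes given above. *Parp14* (a macrodomain ADP-ribosyltransferase), *Samhd1* (a dNTP hydrolase) and *Eif2ak2* (the RNA-activated kinase PKR) passed the filtered test in all 4 early comparisons. *Parp14* went from 3 counts in saline to 255 in IFN-γ wells of NeuN+ nuclei at 6 h (log2 fold change 4.91, SE 0.46). *Samhd1* rose by 4.32 (SE 0.22) in NeuN− and by 2.5 (SE 0.14) in NeuN+ nuclei at 6 h, and *Eif2ak2* by 2.79 (SE 0.31) and 4.1 (SE 0.23).

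Of the 11 receptor, kinase and transcription factor genes, those called at 6 and 24 h included the factors *Stat2* and *Irf1* in both fractions, *Irf9* in NeuN+ nuclei and, in NeuN− nuclei at 6 h, the kinase *Jak2* (log2 fold change 1.87, SE 0.13). No receptor gene was called in any comparison by edgeR, with or without the filter, or by DESeq2. *Irf1* rose from 1 count to 285 in NeuN− and from 1 to 259 in NeuN+ nuclei at 6 h, with log2 fold changes of 6.88 (SE 0.43) and 6.24 (SE 0.51). *Stat2* and *Irf9*, which encode parts of the type I complex, rose in NeuN+ nuclei by 2.73 (SE 0.14) and 2.31 (SE 0.24) at 24 h, and *Stat2* stayed higher in NeuN− nuclei at 48 h by 2.4 and at 72 h by 1.55. *Ifnar1* and *Ifnar2*, the type I receptor chains, had log2 fold changes of 0.02 (SE 0.17) and 0.23 (SE 0.25) in NeuN+ nuclei at 24 h, and *Tyk2*, a kinase of that receptor, 0.08 (SE 0.25).

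Type I interferon transcripts themselves were nearly absent. Over 18 ligand genes each group of wells held 0 to 2 counts in sum, too few to test after the filter. At this depth a brief or local transcript of such a ligand was not detectable, and secreted protein was not measured.

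The 5 genes whose group means ran closest to the mean profile of the members over the 16 groups of wells were *Gm4841*, *Trim34a*, *Irf1*, *Gm43302* and *Cd274*, with Pearson r between 0.974 and 0.975 among 14351 genes ranked. The points share depth and fraction, and the values are a description.

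The single nuclei at 48 h came from 3 mice, with 1016 nuclei in the saline mouse and 2574 and 1109 in the IFN-γ mice, medians of 14646, 9405 and 11767 transcripts (UMIs) per nucleus, and no barcode shared between libraries. Classes were rebuilt by clustering and named from markers, so they may differ from those of the study. The oligodendrocyte-like class was made of cluster 16 and of cluster 22, which held 0 saline nuclei against 331 and 159 in the IFN-γ mice. The leading genes of cluster 22 included *Gbp2*, *Irgm1* and *Irgm2*, which IFN-γ induces. What set these nuclei apart was not tested, and with 1 saline mouse, treatment and mouse cannot be told apart. In 6 clusters, with 30.9%, 34.1% and 30.5% of the nuclei of the 3 mice, no name was given. Of these, cluster 15 and cluster 20, both low in UMIs, are described. Cluster 15 had oligodendrocyte markers highest. Cluster 20 held 31, 49 and 54 nuclei, with microglial markers highest and macrophage markers close behind. Its leading genes included *Inpp5d*, *Ly86*, *Ctss*, *Cd74* and *Siglech*, the last a marker by which the study named microglia. Its 134 nuclei equal in number the microglia of the study, but whether they are the same nuclei was not tested. UMIs were summed per mouse and class and are also given as CPM of that sum, and a gene counted as called with a log2 fold change above 3 in the fit and in each IFN-γ mouse and an edgeR adjusted p below 0.01. With 1 saline mouse the fit assumes that it varies like the IFN-γ mice.

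Over all nuclei at 48 h every member had a higher level in both IFN-γ mice than in the saline mouse. *Bst2* went from 5 UMIs in the saline mouse to 194 and 180, ratios of 21.6 and 36.7 in CPM, and *Ifi27l2a* from 1 to 53 and 66 (ratios 29.5 and 67.2). *Ifi44* went from 1 UMI to 38 and 56 (21.2 and 57), *Rsad2* from 2 to 58 and 45 (16.2 and 22.9) and *Ifitm3* from 2 to 34 and 80 (9.48 and 40.7). These ratios on 1 or 2 saline UMIs had wide counting intervals, such as 3.58 to 859 for *Ifi44* in the first mouse. *Ifit1* went from 30 UMIs to 354 and 199 (ratios 6.58 and 6.76), *Ifit3* from 22 to 194 and 185 (4.92 and 8.57), *Isg15* from 8 to 93 and 69 (6.48 and 8.79) and *Ifit2* from 50 to 192 and 128 (2.14 and 2.61). In the plate IFN-γ wells at 48 h, *Bst2* held 1 count in each fraction, and *Isg15* held 0 in NeuN− and 1 in NeuN+ nuclei. The plate and the single nuclei thus differed for these genes at the same time, and the cause was not tested. The classes took different shares of the nuclei of each mouse, so the levels were read within classes. Within a class the clusters differed too: of the GABA neuron-like nuclei, cluster 3 held 95, 26 and 75 and cluster 10 held 27, 208 and 10, and of the VGLUT2 neuron-like nuclei, cluster 7 held 2, 86 and 14.

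Oligodendrocyte-like nuclei (113, 552 and 216) carried all 9 members in both IFN-γ mice, where the saline mouse held 0 or 1 UMI of each. *Ifit3* stood at 29.8 and 85 CPM in the IFN-γ mice against 0, at least 3.6-fold and 10.3-fold higher, and 8.33% and 18.1% of these nuclei held a UMI, against 0 of 113 in the saline mouse. A count of 0 there allows a share of nuclei with a UMI of up to 2.65%, not a share that express the gene, at a median of 3131 UMIs per nucleus. *Bst2* stood at 37.6 and 56.7 CPM against 0, at least 4.54-fold and 6.84-fold higher, in 11.2% and 21.8% of nuclei. *Ifit1* stood at 17.3 and 35.7 against 0, at least 2.08-fold and 4.31-fold higher. These 3 of 9 were called, with edgeR adjusted p of 6.15e-07, 2.59e-06 and 0.00345, where 0.624% of genes tested in the class were called higher. Response genes lead cluster 22 and may have helped to form this class, so the calls cannot be taken as independent of the clustering. The saline counts of these 3 genes were 0, so they passed the log2 limit of 3 through the prior count. Of their 6 lower bounds only that of *Ifit3* in the second mouse was above that limit.

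The other 6 members in oligodendrocyte-like nuclei were not called. *Ifit2* held 1, 45 and 39 UMIs (adjusted p = 0.00930 by edgeR), with ratios of CPM of 8.52 and 14.8 and, with the prior count, a log2 ratio of 2.98 in IFN-γ mouse 1, under the limit. *Rsad2* held 0, 26 and 30 (edgeR adjusted p = 0.0120) and *Ifi44* 0, 13 and 36 (adjusted p = 0.0212), while *Isg15* held 0, 17 and 21. *Ifi27l2a* and *Ifitm3* held 1, 14 and 26 and 0, 9 and 6 UMIs. In all of these the second IFN-γ mouse had the higher level in CPM. Both mice carried *Ifi27l2a* in cluster 15 too, 15 and 16 UMIs against 0, at least 2.11-fold and 3.61-fold higher, which was not called (edgeR adjusted p = 0.0508; 0.14% of genes were called higher there). *Ifit2* in cluster 15 held 5, 8 and 8 UMIs, ratios of 0.675 and 1.08 with intervals that included 1. *Ifit1*, *Ifit3* and *Bst2* held 0 UMIs in the saline nuclei of that cluster, against 11 and 8, 7 and 14, and 16 and 8. DESeq2 on the sums of the oligodendrocyte-like class called 0 of the 9 members, with 6 at an unadjusted p below 0.05, and edgeR had 8.

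In both IFN-γ mice cluster 20 had the highest levels of *Ifitm3*, *Bst2*, *Ifit2* and *Isg15* of the 7 classes described. *Ifitm3* held 0, 8 and 48 UMIs there, or 0, 40.8 and 207 CPM, and 0 to 9 UMIs in the other 6 classes, and its test missed the limit (edgeR adjusted p = 0.0114). *Bst2* held 4, 20 and 36 UMIs (47.6, 102 and 155 CPM) and *Ifit2* 1, 16 and 26 (11.9, 81.7 and 112). *Isg15* held 0, 8 and 12 UMIs. *Ifi27l2a* was found there too, with 0, 10 and 8 UMIs in the 31, 49 and 54 nuclei. Of *Ifit1*, by contrast, cluster 20 held 1, 0 and 1 UMI of it, or 11.9, 0 and 4.3 CPM. No member was called in cluster 20 by edgeR or DESeq2, with 4 and 1 of 6 tested members at an unadjusted p below 0.05, where edgeR called 0.783% of genes higher.

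In GABA and VGLUT2 neurons *Ifit1* was the member with the most UMIs in the IFN-γ mice. GABA neuron-like nuclei held 9, 111 and 23 UMIs of *Ifit1* (2.1, 15.8 and 5.6 CPM), ratios of 7.52 and 2.67, and VGLUT2 neuron-like nuclei held 9, 97 and 74 (2.14, 11.9 and 14.6), ratios of 5.57 and 6.84. Dopamine neuron-like nuclei held 2, 3 and 4. *Ifi44* stood at 0 to 4 UMIs in each of these classes and mice. *Bst2* was at 0 in the saline mouse in all 3 and present in both IFN-γ mice, with 0, 26 and 17 UMIs in VGLUT2, 0, 8 and 17 in GABA and 0, 5 and 18 in dopamine neuron-like nuclei, and *Ifit2* in VGLUT2 neuron-like nuclei gave ratios of 1.29 and 0.957. Neither edgeR nor DESeq2 called a member in these classes, and edgeR gave an unadjusted p below 0.05 for 3 of 5, 3 of 6 and 1 of 1 tested members in GABA, VGLUT2 and dopamine neuron-like nuclei. Of all genes, 0.0503% were called higher in dopamine neuron-like nuclei and 0.0% in the others.

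Free RNA from other cells can place UMIs in nuclei that do not make a transcript. *Cd74*, which cluster 20 held in 79.6% and 92.6% of its nuclei in the IFN-γ mice, was found in 1.08% and 4.79% of GABA neuron-like nuclei, and *Gbp2*, present in 17.6% and 22.7% of oligodendrocyte-like nuclei, in 0.0% and 1.8%. *Ifit1* was found in 19.4% and 11.4% of GABA and in 12.4% and 15.3% of VGLUT2 neuron-like nuclei of the IFN-γ mice, against 3.03% and 4.1% in the saline mouse. GABA neuron-like nuclei held medians of 17602 and 21298 UMIs in the IFN-γ mice, oligodendrocyte-like nuclei 3250 and 4070 and cluster 20 3800 and 3909, and deeper nuclei show a UMI more often.

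Astrocyte-like nuclei numbered 21, 135 and 37 and held *Ifit1* at 0, 24 and 8 UMIs, *Bst2* at 1, 32 and 22 and no UMI of *Ifi27l2a* in any mouse, and no member was called in them by edgeR (background 0.0844%; 5 of 7 tested members at an unadjusted p below 0.05) or by DESeq2.

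**Figure D4:**
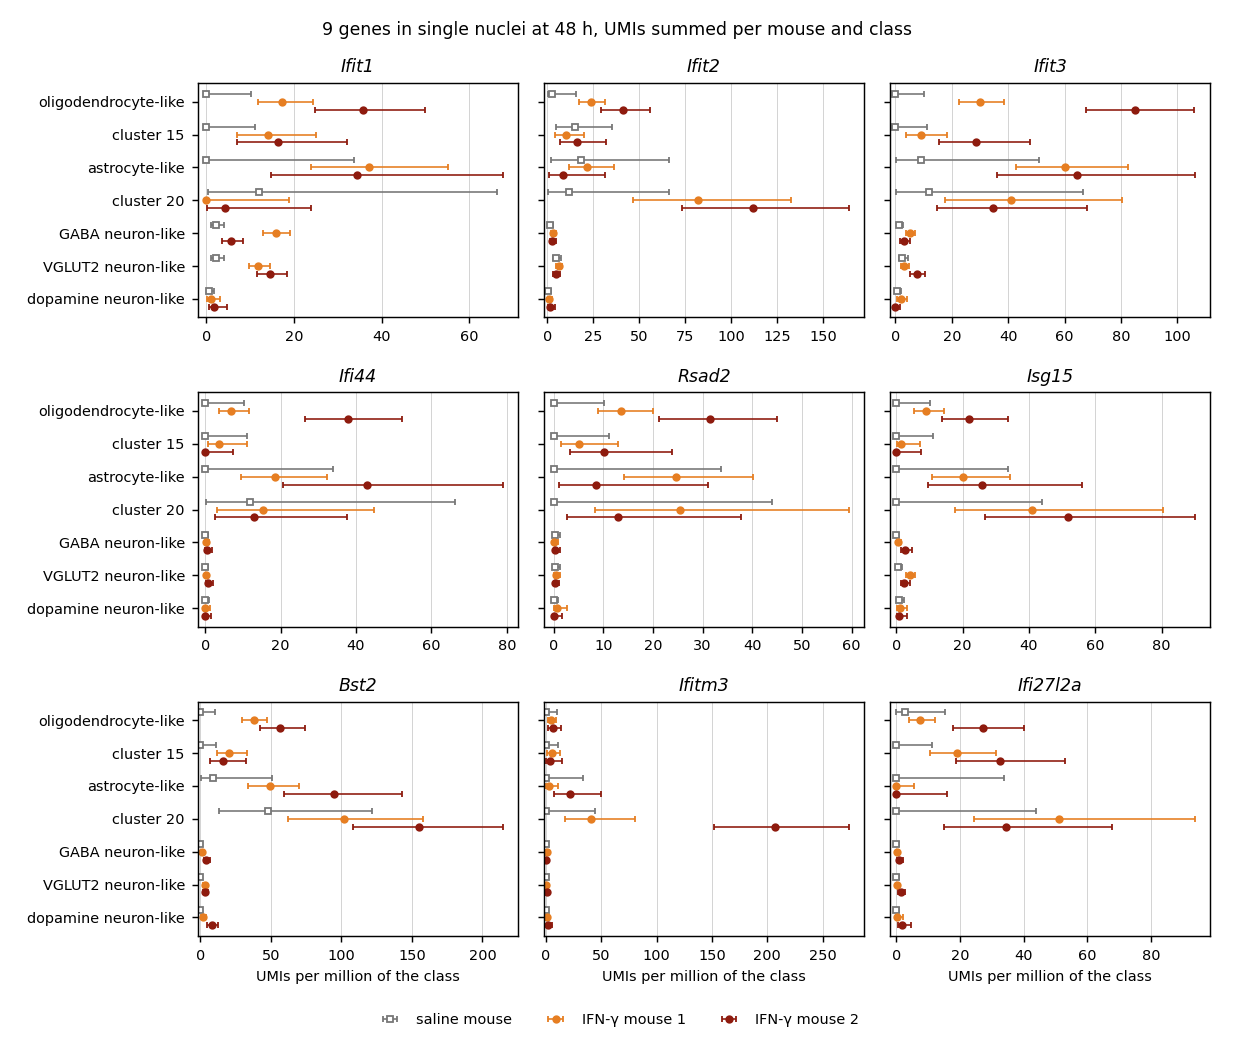
Level in CPM (UMIs scaled to the class total) for the 9 members at 48 h in 7 classes of nuclei (grey squares, saline mouse; orange and dark red, IFN-γ mice 1 and 2), with 95% Poisson intervals. *Ifitm3* and *Ifit2* are highest in cluster 20, *Ifit1* is at 0 and 4.3 there in the IFN-γ mice and at 17.3 and 35.7 in the oligodendrocyte-like class, and *Ifi27l2a* is at 0 in astrocyte-like nuclei.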

How the data were processed

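NeuN− and NeuN+ nuclei of 84 wells and single nuclei of 3 mice were analysed. According to the methods, the authors aligned reads to GRCm38 (Gencode vM10) with STAR, collapsed reads with the same barcode, molecular identifier and gene, and deposited whole-number counts of transcripts per gene and well or nucleus; the single-nucleus reads were kept over the whole gene body, introns included. Groups came from the labels, except the NeuN fraction, which came from the study's sheet of well barcodes. No replicate wells were identical (lowest chi-square per degree of freedom 1.03).

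Counts were tested with edgeR 4.0.16 (quasi-likelihood, TMM, filterByExpr) on the wells of 1 fraction and time, with Benjamini-Hochberg adjustment over all genes tested; the prior count was 0.5. DESeq2 1.42.0, no filter, other scalings and leaving out each well were alternatives. The script was tested on simulated data with log2 changes of 3: of the changed genes that passed its filter, 100% were recovered in the 4 simulated treatment effects. Recovery was lower in the 24 h interaction, at 73%. In the contrasts of 24 h less 6 h it was 87.3% in NeuN− and 88.6% in NeuN+ nuclei. A contrast of these kinds with no member called can therefore miss a change of that size. Nuclei were clustered with scanpy 1.11.5 (2000 variable genes, 30 components, 15 neighbours, Leiden resolution 1), a lead of 0.75 in mean z over the other marker lists was set after the data were seen, and no doublet caller was run. Gene positions are from Gencode vM21 on GRCm38. Named genes were the 9 members, the relatives called or above 10 counts in a group, the ISG15 enzymes, up to 3 genes called most often per other list, and the 5 genes with the nearest profile among those with at least 100 counts. *Irf9*, *Ifnar1*, *Ifnar2* and *Tyk2* were added for their role. Members and lists were chosen with earlier results of these data known. Results for some genes of these lists are not reported here.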

Additional observations from a re-analysis of the deposited data

Results flagged for a closer look

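In 31 groups of wells with at least 20 counts of a member, the highest and lowest wells were compared with the rest of their group by Dixon's criterion, and 4 values in 3 wells stood apart; chance gives about 1 in 20 groups. *Ifit1* was 286.2 CPM in 1 NeuN− IFN-γ well at 6 h (replicate 1), where the others ran from 106 to 167, and *Ifit2* was 239 CPM in the same well, with the others at 19.3 to 95.8. That well was the shallowest of all, and these values rest on 6 and 5 of its 20962 counts. *Ifit3* was 181 CPM in NeuN− IFN-γ replicate 3 at 24 h, on 9 of 49776 counts, against 58.9 to 104 in the others. *Ifit3* was also 145 CPM in NeuN− IFN-γ replicate 6 at 6 h, on 15 of 103648 counts, against 82.5 to 95.4.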

How the results depend on the processing

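Without the low-count filter the number of members called higher changed from 2 to 5, 1 to 5 and 0 to 1 in NeuN− nuclei at 6, 24 and 48 h and from 4 to 7 and 0 to 1 in NeuN+ nuclei at 24 and 48 h, since more members were tested. DESeq2 called 5 and 5 in NeuN− nuclei at 6 and 24 h, and 1 fit of all wells of the fraction 4, 4 and 1 at 6, 24 and 48 h. With saline wells of all times as controls 1 was called in NeuN− nuclei at 6 h. With the 2 saline wells low in *Xist*, an alternative chosen after seeing the data, 5 were called in NeuN− nuclei at 24 h, and 5 also with no filter. Thinning NeuN+ wells to the NeuN− depth, in 1 random draw, left 0 at 6 h and 1 at 24 h, so fewer members were called there at that depth. Between times, the IFN-γ wells alone gave 4 and 4 lower in NeuN− and 1 higher, 5 and 5 lower in NeuN+ nuclei, where contrasts against saline gave 0. Those lower were all the members that the filter kept, which they passed largely through their early IFN-γ wells. Between fractions in saline, 2 were called without the filter and 3 by DESeq2, against 0. In oligodendrocyte-like nuclei 3 became 1 with RLE scaling, 0 with DESeq2 and 5 at Leiden resolution 2; the cause was not tested. With no UMI minimum 1 member was called in each of cluster 20, dopamine and VGLUT2 neuron-like nuclei. The share of all genes called is not reported here for RLE scaling, Leiden resolution 2, no UMI minimum, saline wells of all times, thinned wells or 1 fit of all wells.

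Fits that each lacked 1 well gave 1 to 4 members in NeuN− nuclei at 6 h, 4 to 5 in NeuN+ nuclei at 6 h, and 0 to 1 for both later contrasts in NeuN+ nuclei; each member called in the main fit was called again wherever it was tested. With 1 IFN-γ mouse left out, a value with no test that rests on the prior count where saline held 0 UMIs and is no lower bound, 7 to 9 members passed a log2 ratio of 3 in oligodendrocyte-like nuclei, 4 in astrocyte-like nuclei and in cluster 15, 3 in cluster 20, 1 to 2 in GABA and 1 in VGLUT2 and dopamine neuron-like nuclei. The 2 values that turned sign were near 0: the *Ifit2* interaction at 6 h, which ran from −0.070 without saline NeuN+ replicate 4 to 0.67 over these fits, and *Ifit2* in astrocyte-like nuclei, 0.075 with no UMI minimum. Leiden resolution 0.5 gave no oligodendrocyte class, and a cluster with the same 31, 49 and 54 nuclei per mouse as cluster 20 was found at both other resolutions; clusters 15 and 20 were tested at resolution 1 alone. No paired analysis was possible because replicate numbers were given in accession order and tie no wells together. NeuN− depth is a limit: 1 count there was worth up to 47.7 CPM.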
